A study of Mus musculus with 18 samples.

Results

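The genes described here were 10 genes of T cells and of the cytotoxic granule, listed by name, out of 41079 genes measured in 18 mouse tumors. They were Cd3e, Cd3d, Cd3g and Trac of the T-cell receptor complex, Cd8a and Cd8b1 of the CD8 co-receptor, and Gzma, Gzmb, Prf1 and Nkg7 of the cytotoxic granule. The study asked how a ribozyme against the messenger RNA of PD-L1, carried in a manganese framework, acts on melanoma. B16F10 cells, a mouse melanoma line, were grown under the skin of female C57BL/6 mice, and treatment by injection into the tumor began on day 6 and was repeated every 2 days. Each of the 6 groups had 3 tumors.

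The PBS group received saline alone. Free PS473 was the ribozyme without a carrier, and PS473@CPs was the same ribozyme on cationic polymers. NKMOF-101-[Mn] was the empty manganese framework, M5@NKMOF-101-[Mn] was the framework with a catalytically inactive mutant ribozyme, and PS473@NKMOF-101-[Mn] was the framework with the active one. The titles of the last group's tumors number the framework differently from their treatment description, whose name is used here. All groups thus shared the tumor line, the strain, the sex and the route of injection. The RNA came from whole tumor tissue, in which fewer cells of a type and less RNA per cell cannot be told apart. Nothing in the labels ties the numbered tumors to separate mice, so that p-values here measure the spread between these samples.

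The CD3 chains, encoded by Cd3e, Cd3d and Cd3g, carry the signal of the T-cell receptor into the cell, and Trac encodes the constant region of the receptor's alpha chain. CD8, built from the products of Cd8a and Cd8b1, binds class I major histocompatibility molecules and marks cytotoxic T cells, although Cd8a alone is also made by some dendritic cells. Cytotoxic T cells and natural killer (NK) cells kill their targets by releasing granules that hold perforin, the pore-forming product of Prf1, and granzymes, the proteases encoded by Gzma, Gzmb and their relatives. Nkg7 encodes a granule membrane protein of the same cells. In tumors these genes are widely used as a sign of T cells and of their killing machinery.

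All 10 genes were weakly expressed, and their levels are given in FPKM, fragments scaled by the length of the gene and by the fragments of the tumor, which can be compared between genes. Gzmb had a mean of 1.97 FPKM over the 18 tumors, Nkg7 1.92, Trac 1.47 and Cd3g 1.15. The other 6 genes had means under 1 FPKM, from 0.832 for Gzma down to 0.359 for Cd3d. Of the 180 values, 114 were under 1 FPKM. The melanoma gene Dct, by contrast, had a mean of 2690 FPKM.

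The depth behind these values was small. The tumors had 17212000 to 28401000 fragments on genes, as worked out from the steps in which low values come. On that scale 80 of the 180 values rested on fewer than 20 fragments. The median per tumor was 12.5 fragments for Cd3d, 12.75 for Gzma and 46 for Prf1, the longest of the 10 genes. A value of 0 was listed 2 times, for Gzma in Free PS473 tumor 1 and for Cd3d in Free PS473 tumor 2. At the upper end of the 95% Poisson interval for a count of 0, these tumors could still have held 0.208 FPKM of Gzma and 0.0791 FPKM of Cd3d. Fragments are not independent molecules, so that these limits and the intervals given below for single tumors cover counting error only.

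All of the genes described here varied together across the tumors, not the granule genes alone. The bases just before the transcription start sites of the granule genes are shown because they share a short motif. The sequences come from RefSeq on build GRCm38.p6, each is 150 bases long, ends at the base before the start site and is written 5′ to 3′ on the strand of the gene. Capitals mark TGTGGT or its reverse complement ACCACA, the core letters of the motif bound by RUNX factors, which are regulators of T-cell and NK-cell genes. The stretch of Gzma lies at chr13:113100982-113101131, minus strand, and that of Gzmb at chr14:56262335-56262484, minus strand. The stretch of Prf1 lies at chr10:61297686-61297835, plus strand, and that of Nkg7 at chr7:43436988-43437137, plus strand.
Gzma: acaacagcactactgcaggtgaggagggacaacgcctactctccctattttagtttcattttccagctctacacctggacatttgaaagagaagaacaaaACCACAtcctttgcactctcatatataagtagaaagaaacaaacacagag
Gzmb: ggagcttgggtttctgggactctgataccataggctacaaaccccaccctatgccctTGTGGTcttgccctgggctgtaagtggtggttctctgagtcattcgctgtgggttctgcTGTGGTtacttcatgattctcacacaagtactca
Prf1: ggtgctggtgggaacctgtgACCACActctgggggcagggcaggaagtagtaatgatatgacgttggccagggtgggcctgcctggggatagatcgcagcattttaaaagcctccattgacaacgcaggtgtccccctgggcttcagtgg
Nkg7: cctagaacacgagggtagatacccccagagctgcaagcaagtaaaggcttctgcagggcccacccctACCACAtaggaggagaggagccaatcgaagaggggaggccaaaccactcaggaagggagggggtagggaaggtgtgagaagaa

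The motif was found in 4 of 4 granule promoters, with 2 matches in Gzmb and 1 in each of the others. The search covered 250 bases before to 50 after each start site, on both strands. Of all 32851 promoters in the table, 16.8% held it. The promoters of Cd3e, Cd3d, Cd3g and Cd8a held 0 matches, and no promoter entry was matched for Trac or Cd8b1. The T-box letters GGTGTGA, present in 3.98% of promoters, were found once, in Nkg7. The search also covered letters for ETS (CCGGAAG), NFAT (TGGAAA), AP-1 (TGANTCA), CRE (TGACGTCA), GAS (TTCNNNGAA) and the TATA box (TATAAA). Of these, ETS, CRE and TATA letters had no match in the 8 promoters, and AP-1 letters were found in Gzmb alone. NFAT letters lay in Cd3e, Cd3g and Gzma, and GAS letters in Cd3d, Gzmb and Nkg7. These letters are held by 8.86% (ETS), 21.4% (NFAT), 7.81% (AP-1), 1.79% (CRE), 8.3% (GAS) and 13.6% (TATA box) of all promoters. No matches overlapped. A match in these letters is a description of the sequence and was not tied to binding or to expression here.

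The 10 genes had their lowest group mean in the Free PS473 tumors without exception, both in FPKM and in log2(FPKM + 1). In FPKM, their highest group mean lay in PS473@NKMOF-101-[Mn] for Cd3e, Trac, Cd8a, Gzma and Nkg7, in NKMOF-101-[Mn] for Cd3g and Cd8b1, in M5@NKMOF-101-[Mn] for Gzmb and Prf1, and in PS473@CPs for Cd3d. In log2(FPKM + 1), in which a single high tumor weighs less, the highest mean of Trac was 1.52 in PS473@CPs, against 1.45 in PS473@NKMOF-101-[Mn]. NKMOF-101-[Mn] then had the highest mean of Cd8a, at 1.05 (1.055) against 1.01, and of Nkg7, at 1.75 against 1.64. The order among the upper groups was not separated by the tumors. When the 6 groups were ordered by their mean FPKM for each gene, 45 of the 50 pairs of neighbouring groups overlapped in their tumors.

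**Figure D1:**
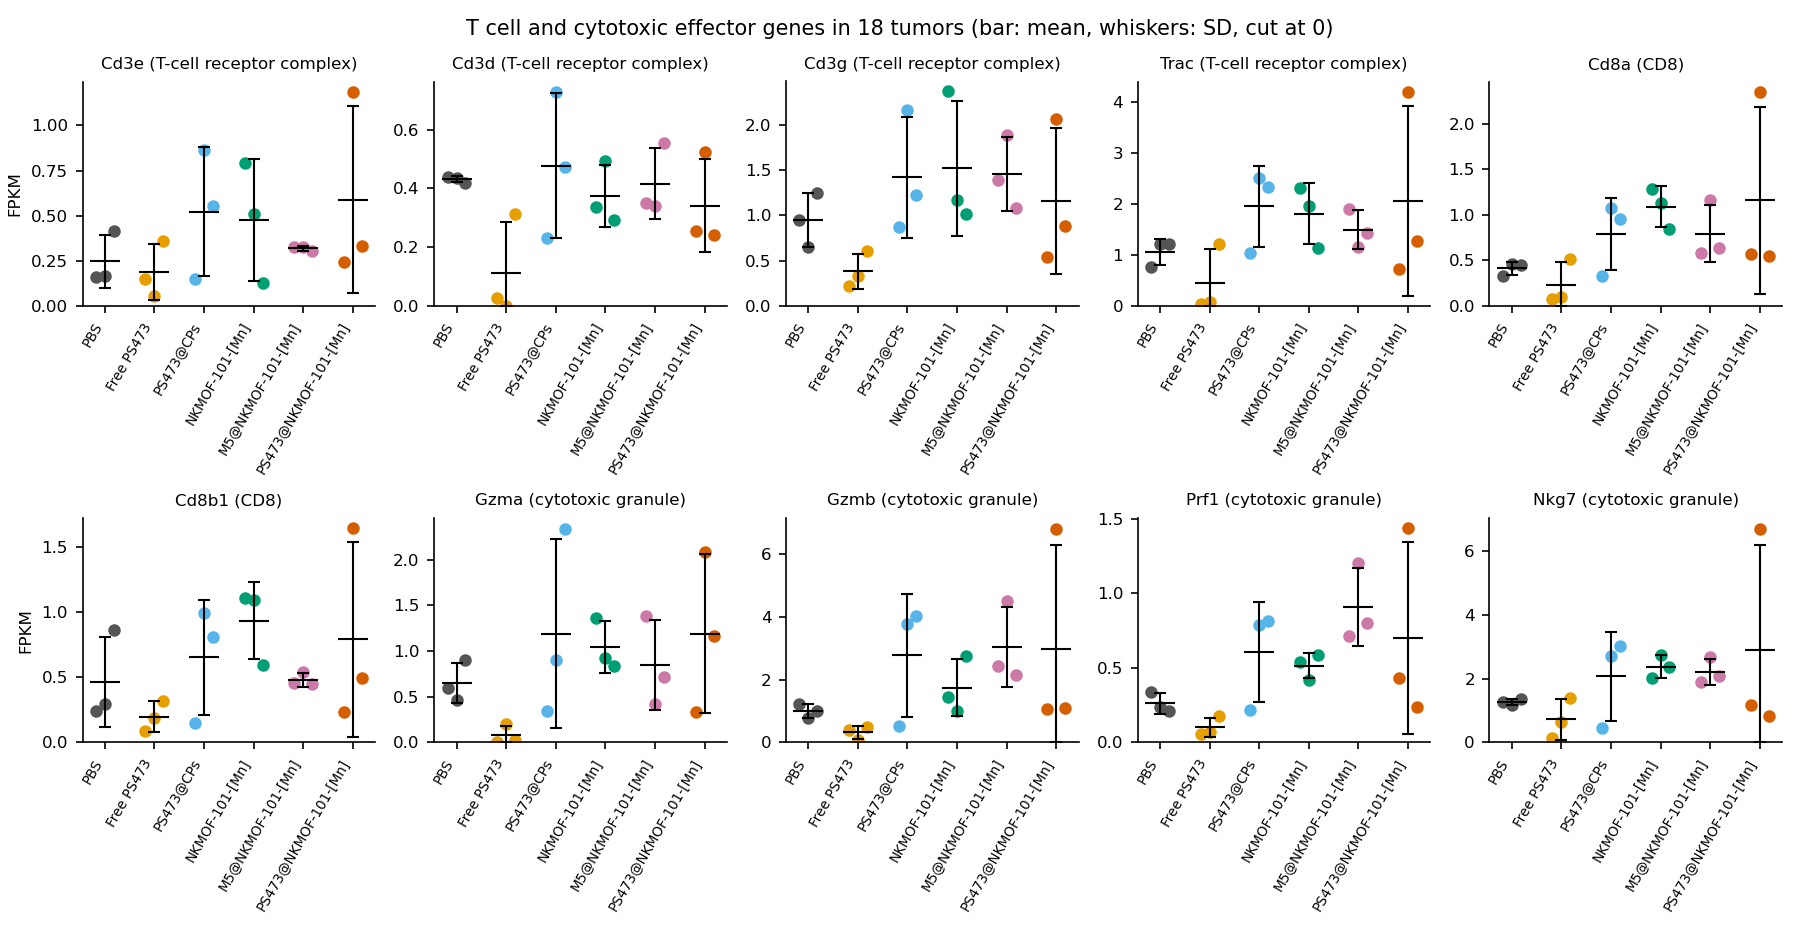
FPKM of the 10 genes (y axis, from 0, with its own scale for each gene) in the 3 tumors of each of 6 groups (x axis). Points are tumors, horizontal bars are group means and whiskers are SD, drawn no lower than 0. The Free PS473 mean is the lowest for all 10 genes, and 1 PS473@NKMOF-101-[Mn] tumor lies far above the other 2 for most of them.

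Cd3e, which encodes the epsilon chain of CD3, had 0.245, 1.19 and 0.332 FPKM in PS473@NKMOF-101-[Mn] and 0.149, 0.0544 and 0.358 FPKM in Free PS473. The PBS tumors had 0.159, 0.164 and 0.417 FPKM. The second PS473@NKMOF-101-[Mn] tumor was the highest of all 18, and the other 2 lay within the range of the PBS tumors. The M5@NKMOF-101-[Mn] tumors were close to each other, at 0.302 to 0.327 FPKM.

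Cd3d, the delta chain, was the lowest of the 10 genes. It lay at 0.432 ± 0.0104 FPKM (SD, n = 3) in PBS and at 0.0274, 0 and 0.312 FPKM in Free PS473. The PBS values rested on 16, 15.5 and 15 fragments. Their 95% Poisson intervals, between 0.235 and 0.715 FPKM, were far wider than this SD. All 3 Free PS473 tumors were below all PBS tumors, but the interval of the third, on 12 fragments, reached 0.545 FPKM. The highest value was 0.729 FPKM, in PS473@CPs tumor 2. Cd3g, the gamma chain, ran from 0.219 FPKM in Free PS473 tumor 1 to 2.37 FPKM in NKMOF-101-[Mn] tumor 1. Its Free PS473 tumors, at 0.219, 0.324 and 0.601 FPKM, were likewise all below the PBS tumors, at 0.952, 0.652 and 1.25 FPKM.

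Trac gave the widest contrast among the genes of the receptor complex. It had 0.719, 4.18 and 1.27 FPKM in PS473@NKMOF-101-[Mn] and 0.0268, 0.0736 and 1.21 FPKM in Free PS473. The groups overlapped, because the third Free PS473 tumor lay above the first PS473@NKMOF-101-[Mn] tumor. The PBS tumors had 0.768, 1.2 and 1.21 FPKM, close to that tumor. The 2 low Free PS473 values rested on 0.5 and 1.75 fragments, and their 95% Poisson intervals reached up to 0.251 and 0.287 FPKM, still below every other tumor.

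Cd8a, the alpha chain of CD8, had 0.574, 2.35 and 0.547 FPKM in PS473@NKMOF-101-[Mn] and 0.327, 0.459 and 0.448 FPKM in PBS. The Free PS473 tumors had 0.0795, 0.0996 and 0.514 FPKM. All PS473@NKMOF-101-[Mn] tumors were above all tumors of both other groups, although 2 of them by a small margin. The NKMOF-101-[Mn] tumors had 1.28, 1.13 and 0.845 FPKM and the M5@NKMOF-101-[Mn] tumors 0.585, 1.16 and 0.637 FPKM. These were also above every PBS tumor. Cd8b1, the beta chain, which dendritic cells lack, did not separate these groups. It had 0.228, 1.64 and 0.496 FPKM in PS473@NKMOF-101-[Mn] and 0.236, 0.294 and 0.86 FPKM in PBS. The ratio of Cd8a to Cd8b1 in FPKM had a median of 1.34 over the tumors and ran from 0.52 to 2.51.

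Gzmb, which encodes granzyme B, was the most abundant of the 10 genes. The PS473@NKMOF-101-[Mn] tumors had 1.06, 6.81 and 1.08 FPKM, and the M5@NKMOF-101-[Mn] tumors had 2.44, 4.52 and 2.15 FPKM. The PBS tumors had 1.22, 0.763 and 0.994 FPKM, and the Free PS473 tumors 0.378, 0.0773 and 0.485 FPKM. The M5@NKMOF-101-[Mn] tumors were all above PBS, whereas 2 of the 3 PS473@NKMOF-101-[Mn] tumors lay within the PBS range. All Free PS473 tumors lay below all PBS tumors.

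Prf1, the perforin gene, followed a like order. It had 0.714, 1.21 and 0.802 FPKM in M5@NKMOF-101-[Mn], 0.54, 0.419 and 0.584 FPKM in NKMOF-101-[Mn], and 0.43, 1.44 and 0.238 FPKM in PS473@NKMOF-101-[Mn]. The PBS tumors, at 0.339, 0.234 and 0.211 FPKM, were all below M5@NKMOF-101-[Mn] and the empty framework and overlapped with PS473@NKMOF-101-[Mn]. The Free PS473 tumors had 0.0527, 0.0702 and 0.175 FPKM and lay below PBS.

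Gzma, which encodes granzyme A, had 0.336, 2.08 and 1.17 FPKM in PS473@NKMOF-101-[Mn] and 0, 0.199 and 0.0268 FPKM in Free PS473. Its highest value, 2.34 FPKM, was in PS473@CPs tumor 3. The groups PS473@NKMOF-101-[Mn] and Free PS473 did not overlap. Their closest values, in PS473@NKMOF-101-[Mn] tumor 1 and Free PS473 tumor 2, rested on 7 and 4.5 fragments. The 95% Poisson intervals of these values, 0.135 to 0.692 and 0.0597 to 0.485 FPKM, did overlap. Nkg7 had 1.17, 6.7 and 0.813 FPKM in PS473@NKMOF-101-[Mn] and 0.122, 0.647 and 1.4 FPKM in Free PS473, and these groups did overlap. Its PBS tumors lay at 1.26 ± 0.0904 FPKM (SD, n = 3). They rested on 18.5 to 21.5 fragments, with 95% Poisson intervals between 0.697 and 2.05 FPKM, far wider than this SD. All tumors of M5@NKMOF-101-[Mn] and of the empty framework were above the PBS values, at 1.89 to 2.74 FPKM.

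The comparison of PS473@NKMOF-101-[Mn] with Free PS473 asked what the framework adds to the active ribozyme. In the comparisons, means are of log2(FPKM + 1) unless FPKM is named. All 10 genes had the higher mean with the framework, with a median difference of 0.66 in log2(FPKM + 1) against -0.04 over the 18312 genes tested. The largest differences were 1.31 ± 0.50 (SE) for Gzmb, 1.02 ± 0.37 for Trac, 0.95 ± 0.32 for Gzma and 0.93 ± 0.47 for Nkg7. None of them passed the test across all genes with limma and Benjamini-Hochberg adjustment. The lowest adjusted p among the 10 genes was 0.832, for Gzma, and in each of the comparisons made here 0 genes of the whole table were called (0%). At an unadjusted p under 0.05, 6 of the 10 genes were reached (Cd3g, Trac, Cd8a, Gzma, Gzmb and Prf1), against 4.93% of all genes tested. Cd8a, Gzma, Gzmb and Prf1 lay above Free PS473 in every tumor, a separation in this direction that 2.31% of all genes showed.

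The count at an unadjusted p moved with single tumors and with the processing. It fell to 0 of 10 when PS473@NKMOF-101-[Mn] tumor 2 was left out, to 3 of 10 when Free PS473 tumor 2 was and to 4 when Free PS473 tumor 1 was. It rose to 9 when PS473@CPs tumor 1 or PS473@NKMOF-101-[Mn] tumor 1 was left out. It was 2 when the groups were compared alone and 10 under quantile normalization. All 10 genes still had the higher mean without the former tumor, with a median difference of 0.29. Since 1 was added to each FPKM before the log, a difference understates the change of low genes. On fragments recovered from the values, limma's voom gave 3.73 for Gzma and 2.96 for Gzmb on the log2 scale, again without an adjusted call.

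Against PBS, 9 of the 10 genes had the higher mean in PS473@NKMOF-101-[Mn] tumors and Cd3d the lower one. The median difference was 0.35 in log2(FPKM + 1), against -0.03 over all genes tested. Gzmb differed by 0.70 (95% interval -0.37 to 1.77), Cd8a by 0.51 (-0.04 to 1.07) and Prf1 by 0.37 (-0.07 to 0.81). The limma adjusted p was 0.993 to 0.994 for the 10 genes, and 0 of them reached an unadjusted p under 0.05, against 2.58% of all genes. Cd8a alone lay above PBS in every tumor, against 2.42% of all genes in this direction. Without PS473@NKMOF-101-[Mn] tumor 2, 5 genes had the higher and 5 the lower mean, and the median difference was -0.002. The median was 0.56 when tumor 1 of this group was left out. The count at an unadjusted p was then 1, and it was 2 when tumor 3 was left out and 3 with quantile normalization or with the skin covariate described below.

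The comparison with M5@NKMOF-101-[Mn] is the one in which the ribozyme alone was changed, from inactive to active. Of the 10 genes, 5 had the higher mean with the active ribozyme and 5 the lower one, with a median difference of 0.05. In mean FPKM, 6 were higher, Nkg7 being added. The differences were 0.22 for Cd3e, -0.28 for Gzmb and -0.22 for Prf1. The 95% interval ran from -1.35 to 0.79 for Gzmb and from -0.66 to 0.22 for Prf1. The limma adjusted p was 1 for the 10 genes, 0 of 10 reached an unadjusted p under 0.05 (1.11% of all genes did), and 0 of 10 separated the groups (4.66% of all genes did).

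Against the empty framework NKMOF-101-[Mn], 4 genes had the higher mean in PS473@NKMOF-101-[Mn] and 6 the lower one, with a median difference of -0.03. In mean FPKM, 7 were higher, with Trac, Cd8a and Nkg7 changing sides. Against PS473@CPs, 6 had the higher and 4 the lower mean, with a median of 0.03, and in mean FPKM 8 were higher, with Trac and Gzmb changing sides. In both comparisons 0 of 10 genes reached an unadjusted p under 0.05, with 2.75% and 2.58% of all genes, and 0 of 10 separated the groups, with 8.01% and 4.67% of all genes. The lowest limma adjusted p among the 10 genes was 0.999 and 0.993. Without PS473@NKMOF-101-[Mn] tumor 2, all 10 genes had the lower mean in the 2 remaining PS473@NKMOF-101-[Mn] tumors in each of these comparisons. The median difference was then -0.38 against NKMOF-101-[Mn], -0.25 against PS473@CPs and -0.26 (-0.255) against M5@NKMOF-101-[Mn]. There was then 1 gene at an unadjusted p under 0.05 against the empty framework, Cd8b1, and 1 against the mutant, Prf1. Leaving out tumor 1 of the group instead gave the higher mean for 9 of 10 genes against NKMOF-101-[Mn] (median 0.18) and against PS473@CPs (0.27), and for 7 of 10 against the mutant (0.29). Without its tumor 3 it was 8, 7 and 7 of 10, in this order. Without PS473@CPs tumor 1, 0 of 10 genes were higher than in PS473@CPs, with a median of -0.27, and without PS473@CPs tumor 2 or 3 it was 8. These comparisons share the same PS473@NKMOF-101-[Mn] tumors.

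**Figure D2:**
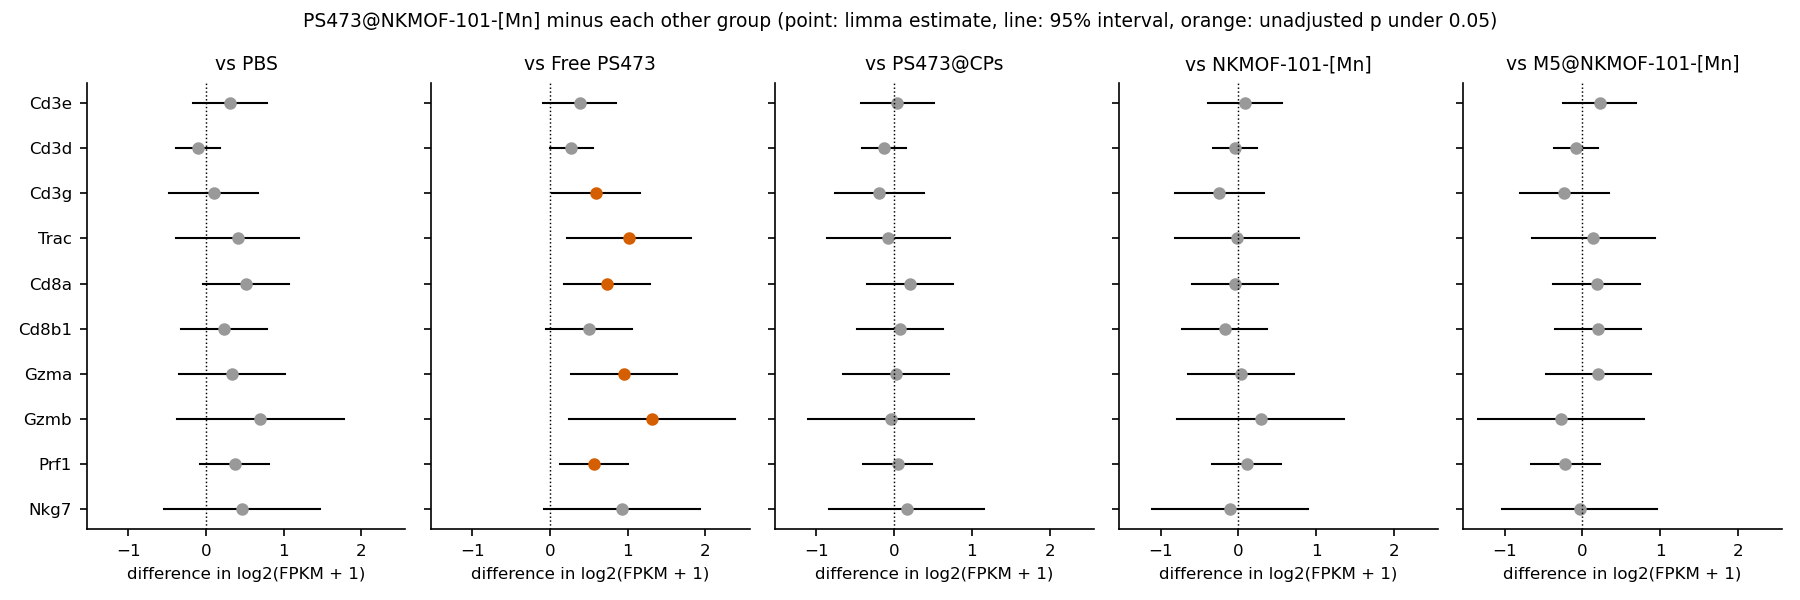
Difference in log2(FPKM + 1) between PS473@NKMOF-101-[Mn] and each other group (x axis, 1 panel per group) for the 10 genes (y axis). Points are limma estimates over 18 tumors, lines are 95% intervals and orange marks an unadjusted p under 0.05. The 10 points lie above 0 against Free PS473, and 6 of them are orange; against the last 3 groups they lie on both sides of 0.

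The other groups were compared with PBS, and these comparisons share the PBS tumors. Free PS473 had the lower mean for all 10 genes, with a median difference of -0.42 in log2(FPKM + 1) against 0.02 over all genes. Cd3d, Cd3g, Gzma, Gzmb and Prf1 lay below PBS in every Free PS473 tumor, against 2.13% of all genes in this direction. At an unadjusted p under 0.05 there was 1 gene of the 10, Cd3d at -0.38 ± 0.13 (SE), against 2.47% of all genes. Without Free PS473 tumor 2 it was 0, and it was 2 when Free PS473 tumor 3, PS473@CPs tumor 1 or 3, or PS473@NKMOF-101-[Mn] tumor 1 or 2 was left out. It was 5 when the groups were compared alone and 4 with a pseudocount of 0.1 or on recovered fragments. Without Free PS473 tumor 1 the median difference was -0.26. With the skin covariate it was -0.22, and 1 of the 10 genes then had the higher mean in Free PS473.

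PS473@CPs had the higher mean than PBS for all 10 genes, with a median difference of 0.31. The groups overlapped for every gene, since PS473@CPs tumor 1 was low, with 4.31 FPKM summed over the 10 genes against 16.5 and 16.6 in the other 2. At an unadjusted p under 0.05 there were 0 genes of the 10 (2.54% of all genes), and 6.39% of all genes separated the groups. The median difference was 0.51 without PS473@CPs tumor 1, and 0.15 without tumor 2, when 1 gene had the lower mean. The count was 2 without PS473@CPs tumor 1 and 1 when PS473@NKMOF-101-[Mn] tumor 2 was left out.

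The 2 frameworks without active ribozyme gave more even sums over the 10 genes than the groups with active ribozyme. This did not hold for every gene, since Cd3e ran from 0.123 to 0.792 FPKM in NKMOF-101-[Mn]. NKMOF-101-[Mn] had the higher mean than PBS for 9 genes, with a median difference of 0.38, and Cd8a, Prf1 and Nkg7 lay above PBS in every tumor (4.19% of all genes did). M5@NKMOF-101-[Mn] had the higher mean for 9 genes, with a median of 0.30, and Cd8a, Gzmb, Prf1 and Nkg7 lay above PBS in every tumor (4.28% of all genes did). At an unadjusted p under 0.05 there was 1 gene in each comparison. It was Cd8a at 0.56 ± 0.26 (SE) for NKMOF-101-[Mn], with 2.11% of all genes, and Prf1 at 0.59 ± 0.21 for M5@NKMOF-101-[Mn], with 2.23% of all genes. The first count was 0 when any of 9 tumors was left out: PBS 1 or 2, Free PS473 1 or 2, PS473@CPs 3, NKMOF-101-[Mn] 1 or 2, or M5@NKMOF-101-[Mn] 1 or 3. The second count was 0 without M5@NKMOF-101-[Mn] tumor 2. It was 2 when PS473@CPs tumor 1 or PS473@NKMOF-101-[Mn] tumor 2 was left out. With the groups compared alone the counts were 3 and 4, and with the skin covariate 2 and 3. The first count was 0 without a filter and with upper-quartile scaling, and the second was 2 under quantile normalization. The limma adjusted p was 1 for all 10 genes in these 4 comparisons with PBS.

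With the 9 tumors that received the framework set against the other 9, all 10 genes had the higher mean, with a median difference of 0.36 against -0.01 over all genes. At an unadjusted p under 0.05 there were Cd8a at 0.43 ± 0.15 (SE), Gzmb at 0.65 ± 0.29 and Prf1 at 0.36 ± 0.12, against 4.7% of all genes. The limma adjusted p was 0.887 for these, and 0 genes of the 10 and of the table (0.0%) separated the 9 tumors from the other 9. Leaving out PS473@NKMOF-101-[Mn] tumor 1 gave a count of 8. It was 6 without Free PS473 tumor 3 and 5 without PS473@CPs tumor 2 or 3. It fell to 2 when any of Free PS473 1 or 2, PBS 2, PS473@CPs 1 or PS473@NKMOF-101-[Mn] 2 was left out. It was 8 under quantile normalization and with the skin covariate, and 7 with a pseudocount of 0.1 and on recovered fragments. A test for any difference among the 6 groups reached an unadjusted p under 0.05 for Prf1 alone, against 2.48% of all genes, with a limma adjusted p of 1. That count lay between 0 and 7 when single tumors were left out. It was 7 without PS473@CPs tumor 1 and 6 when PS473@NKMOF-101-[Mn] tumor 1 or 2 was left out. It was 4 without Free PS473 tumor 3, 3 without PS473@NKMOF-101-[Mn] tumor 3, 2 without PS473@CPs tumor 2 or 3 or NKMOF-101-[Mn] tumor 3, and 0 without Free PS473 tumor 1 or 2 or M5@NKMOF-101-[Mn] tumor 2. It was 7 with a pseudocount of 0.1 and on recovered fragments, 6 under quantile normalization and 5 with the skin covariate. Group membership held 26.2% to 58% of the variance of the 10 genes, with a median of 49% against 24.6% over all genes tested.

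The spread within groups came to a large part from single tumors. Summed over the 10 genes, PS473@NKMOF-101-[Mn] tumor 2 had 29 FPKM, whereas the other tumors of its group had 5.56 and 7.07 FPKM. The PBS tumors had 6.3, 5.84 and 8.05 FPKM, so that 1 of the other 2 lay below and 1 within their range. That tumor was the highest of 18 for 7 of the 10 genes. Free PS473 tumors 1 and 2, with 1.14 and 1.73 FPKM, were the lowest for 7 and for 3 of the genes, and the third Free PS473 tumor had 5.4 FPKM. The NKMOF-101-[Mn] tumors, at 10.5 to 13.6 FPKM, and the M5@NKMOF-101-[Mn] tumors, at 10.2 to 14.2 FPKM, were the groups whose tumors all lay above PBS and near each other.

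**Figure D3:**
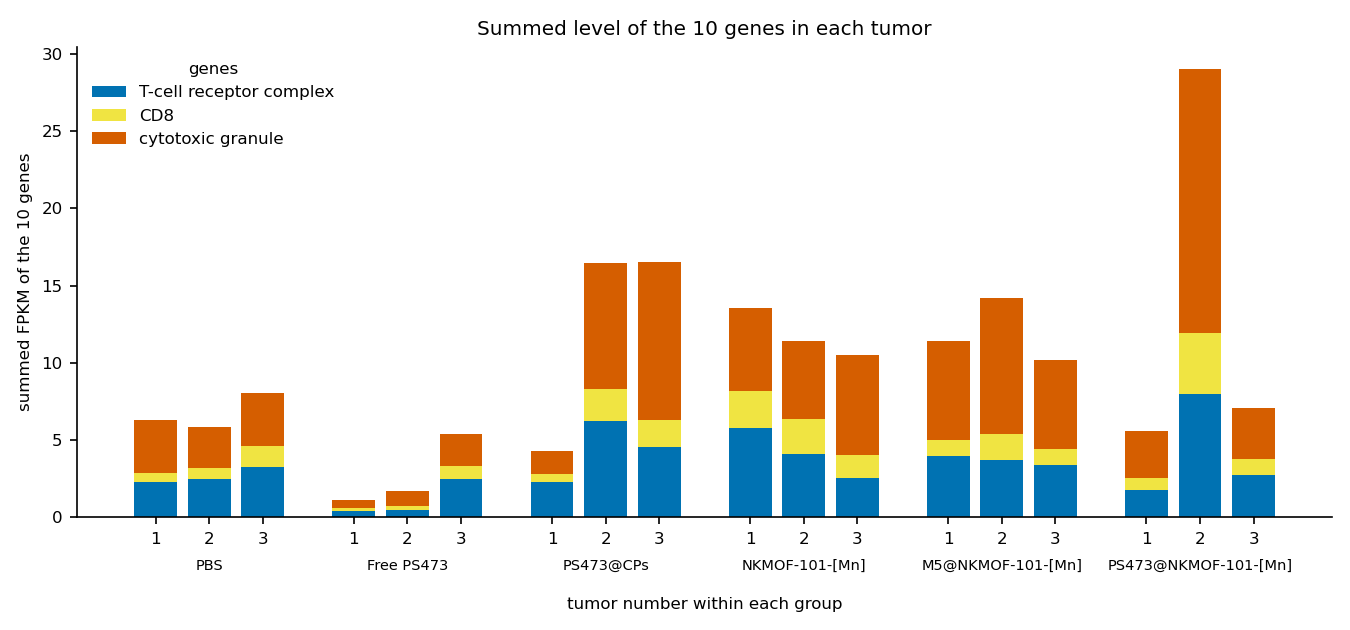
FPKM summed over the 10 genes (y axis, from 0) in each tumor, grouped by treatment (x axis), with the share of each set of genes stacked in colors. PS473@NKMOF-101-[Mn] tumor 2 stands at 29 FPKM and Free PS473 tumors 1 and 2 at 1.14 and 1.73 FPKM.

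The 10 genes went up and down together across the tumors. Over the 45 pairs of genes, the Pearson correlation of log2(FPKM + 1) across 18 tumors ran from 0.568 to 0.96, with a median of 0.773. After the group means were subtracted the median was 0.718, and it was 0.746 when PS473@NKMOF-101-[Mn] tumor 2 was left out. Pairs of the same role had a median of 0.803 and pairs of different roles 0.764. The points share tumor, library and the scaling of FPKM, and the correlations are given as a description.

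The mean of the 3 CD3 genes and the mean of the 4 granule genes, taken in log2(FPKM + 1), correlated at 0.846 across the tumors and at 0.761 within groups. The balance between them was not the same in all tumors. The summed FPKM of the granule genes was 1.66 to 2.2 times that of the CD3 genes in PBS and 2.96 to 3.44 times in M5@NKMOF-101-[Mn], and these ranges did not overlap. In PS473@NKMOF-101-[Mn] the ratio was 2.89, 4.51 and 2.26, also above PBS, but only just in the third tumor. In that tumor these genes rested on few fragments, from 9 for Cd3d to 33.5 for Gzmb. The highest ratio was 4.54, in PS473@CPs tumor 3 and NKMOF-101-[Mn] tumor 3, and the lowest was 1.23, in PS473@CPs tumor 1. These ratios were not tested.

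**Figure D4:**
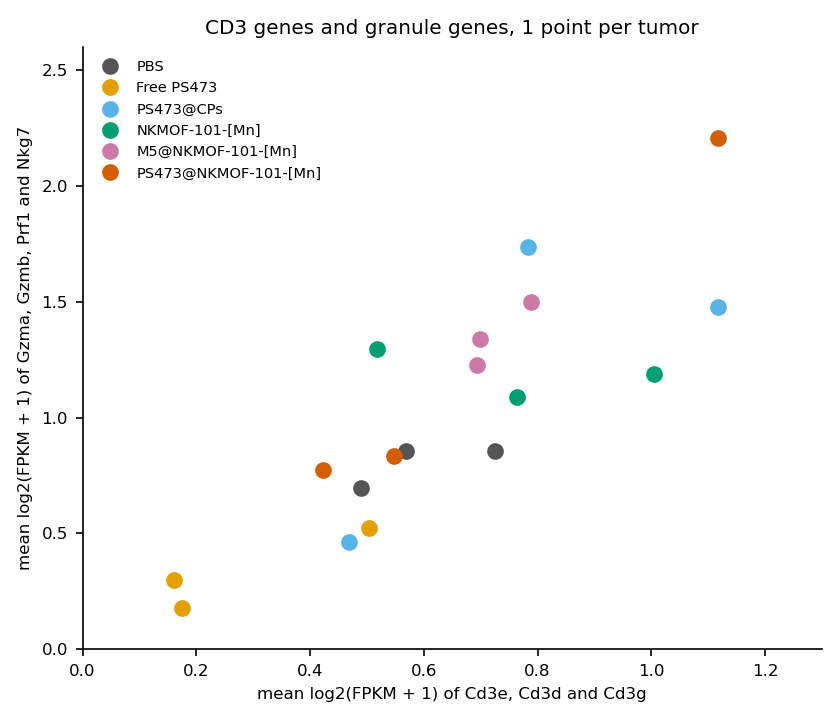
Mean log2(FPKM + 1) of Gzma, Gzmb, Prf1 and Nkg7 (y axis) against that of Cd3e, Cd3d and Cd3g (x axis), 1 point per tumor, colored by group. The points rise together (Pearson 0.846 over 18 tumors), and the M5@NKMOF-101-[Mn] tumors lie close to each other.

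Other genes of the pathway were counted over fixed lists. Of 23 further genes for receptor chains and T-cell signalling, 17 could be tested, and Thy1 at a mean of 12.9 FPKM, Trbc2 at 2.85 and Lck at 1.61 were among the highest. Cd247, a T-cell marker of the same list, was not low in Free PS473 tumors 1 and 2. It had 0.817, 0.838 and 0.607 FPKM in Free PS473 and 0.594, 0.764 and 0.815 FPKM in PBS. In PS473@NKMOF-101-[Mn] it had 0.726, 0.931 and 0.589 FPKM. Against Free PS473, 15 of the 17 had the higher mean in PS473@NKMOF-101-[Mn], with a median difference of 0.20. Against PBS it was 12 of 17, with a median of 0.09. Of 18 other granzymes and granule genes, 17 could be tested, of which 13 were higher than in Free PS473 and 12 higher than in PBS, with medians of 0.27 and 0.12. In M5@NKMOF-101-[Mn] all 17 of them had a higher mean than in PBS, with a median of 0.17. Lamp1, a lysosomal membrane protein of most cells, had the highest level of this list with a mean of 182 FPKM.

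Helper, regulatory and naive T-cell genes had 2 of 9 tested genes higher and 7 lower than in PBS, with a median of -0.02, and Foxp3 at a mean of 1.87 FPKM was the highest of them. Foxp3 did not follow the T-cell genes, with 1.63 and 1.82 FPKM in Free PS473 tumors 1 and 2 and 1.51 to 2.36 FPKM over all tumors. Cd4 had 0.129 and 0.0627 FPKM in those 2 tumors. Tcf7, Ccr7 and Il7r of the same list had means of 1.36, 0.631 and 0.491 FPKM. Ctla4, Cd4 and Il2ra, also of this list, had means of 0.281, 0.194 and 0.146 FPKM. Effector regulators, receptors and cytokines had 8 of 13 tested genes higher than in PBS and 10 of 13 higher than in Free PS473. In these 4 lists, as in all others counted, 0 genes had a limma adjusted p under 0.05 in any comparison. At an unadjusted p under 0.05, PS473@NKMOF-101-[Mn] was higher than Free PS473 for 2, 5, 1 and 1 genes of the receptor, granule, helper and effector lists, in this order (of 17, 17, 9 and 13 tested), and lower for 0, against 4.93% of all genes.

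Markers of NK cells, which share the granule genes, were low. Of 11 such markers 5 could be tested and 0 had a mean of 1 FPKM or more. The highest were Klrd1 at a mean of 0.463 FPKM, Klrc1 at 0.257 and Klrk1 at 0.193, and Ncr1, the defining receptor gene, had 0.0778. Their summed level was 0.752 to 1.72 FPKM in PBS, 0.193 to 1.11 in Free PS473, 0.841 to 2.84 in PS473@CPs, 1.17 to 2.48 in NKMOF-101-[Mn], 1.41 to 1.65 in M5@NKMOF-101-[Mn] and 0.69 to 5.11 in PS473@NKMOF-101-[Mn]. Ncr1 was listed at 0 in PBS tumor 2, and 0 of the 11 markers were at 0 in every tumor. Across 18 tumors the mean of this list correlated at 0.875 with the granule mean and at 0.857 with the CD3 mean. The part of NK cells in the granule values was not tested.

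Gamma delta T cells were covered by only 2 of 6 markers, Trdc at a mean of 0.277 FPKM and Trgv2 at 0.11. PS473@CPs tumor 2 had the highest Trdc level, at 1.99 FPKM, and PS473@NKMOF-101-[Mn] tumor 2 had 1.04 FPKM. General leukocyte markers, 7 genes led by Arhgdib and Laptm5, summed to 124 to 216 FPKM in Free PS473, 148 to 171 in PBS and 151 to 199 in PS473@NKMOF-101-[Mn]. Most of each sum was Arhgdib, at 127, 110 and 157 FPKM in Free PS473. The mean log2(FPKM + 1) of the 7 markers was 2.54, 2.29 and 3.7 in Free PS473, and the first 2 were the lowest of all tumors. It was 3.07, 3.47 and 3.25 in PBS and 2.88, 3.83 and 3.04 in PS473@NKMOF-101-[Mn]. Their mean correlated at 0.743 with the CD3 mean and at 0.723 with the granule mean. All 7 had a higher mean in PS473@NKMOF-101-[Mn] than in Free PS473 (median 0.40), and 3 of 7 a higher one than in PBS (median -0.01). Macrophage markers, 10 genes led by Lyz2 and C1qb, correlated at 0.623 with the CD3 mean and at 0.432 with the granule mean, and summed to 302 to 569 FPKM in NKMOF-101-[Mn] against 157 to 242 in PBS. The sums in M5@NKMOF-101-[Mn] (195 to 351), PS473@NKMOF-101-[Mn] (148 to 268) and Free PS473 (92 to 526) overlapped with PBS. All 10 markers had a lower mean in PS473@NKMOF-101-[Mn] than in NKMOF-101-[Mn] (median -0.95). Of these, 4 reached an unadjusted limma p under 0.05, against 2.75% of all genes. The part of these cells in the results above was not tested.

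The tumor pieces also differed in skin. The 16 skin epithelium markers, led by Krt14 and Lgals7, summed to 8.31 to 4420 FPKM over the tumors. They lay at 10 to 366 FPKM in Free PS473, 16.2 to 3520 in PBS and 10.3 to 425 in PS473@NKMOF-101-[Mn]. Their mean correlated at 0.594 with the CD3 mean and at 0.339 with the granule mean. With this mean as a covariate, the difference between PS473@NKMOF-101-[Mn] and Free PS473 was 1.23 for Gzmb and 0.92 for Trac, and that to PBS was 0.88 for Gzmb and 0.65 for Cd8a. Between Free PS473 and PBS, the median difference of the 10 genes was -0.22 with the covariate and -0.42 without it. The 9 melanoma markers summed to 5030 to 7990 FPKM and correlated at 0.037 with the CD3 mean and at 0.27 with the granule mean. In PS473@NKMOF-101-[Mn] they had a higher mean than in Free PS473 for 9 of 9 (median 0.30) and than in PBS for 8 of 9 (median 0.20), and they were higher in the framework tumors for 9 of 9 (median 0.21). Their part in the results was not tested. The fragments assigned to genes correlated at 0.048 and 0.09.

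**Figure D5:**
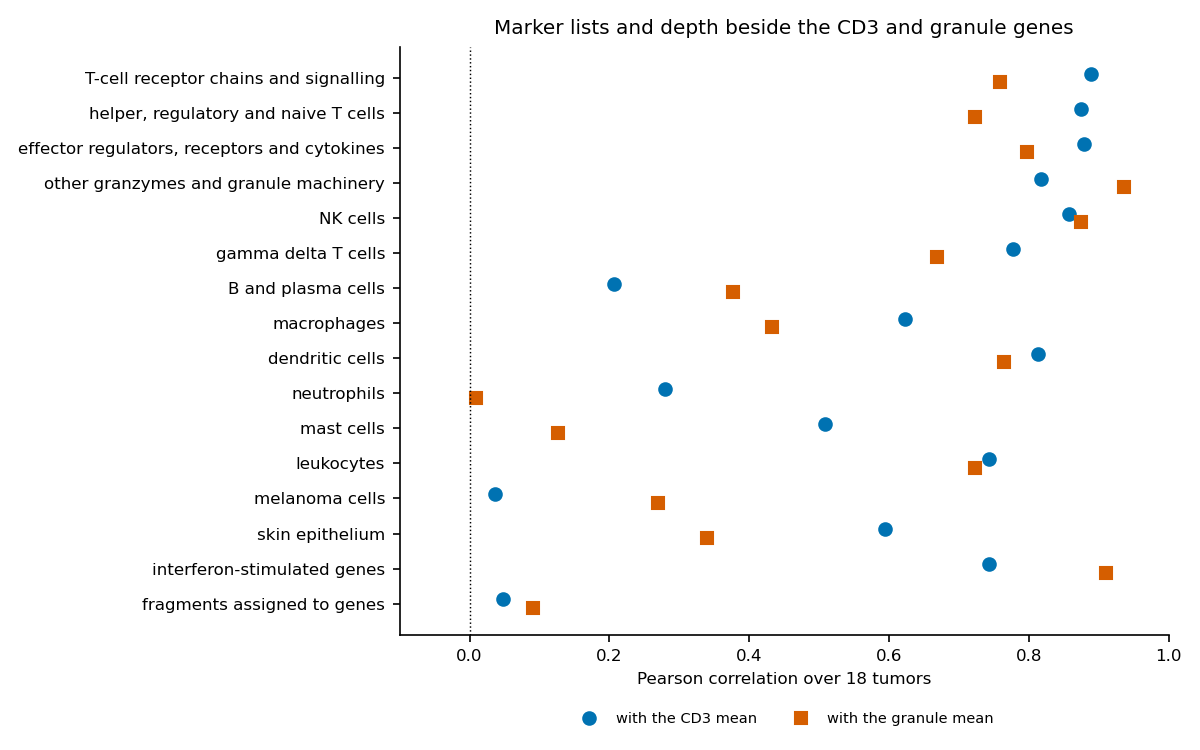
Pearson correlation over 18 tumors (x axis) between the mean log2(FPKM + 1) of each marker list, or the number of fragments on genes (y axis), and the mean of the CD3 genes (circles) or of the granule genes (squares). The other granzymes (0.936) and the interferon-stimulated genes (0.91) lie highest with the granule mean, and the receptor chains (0.889) with the CD3 mean.

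The genes whose pattern over the 18 tumors was most like these were sought among the 12353 genes whose mean reached 1 FPKM. For the CD3 mean they were Ms4a4b at a Pearson correlation of 0.938, H2-T23 at 0.913, Clec2d at 0.906, Gbp5 at 0.903 and AW112010 at 0.9. Ms4a4b, a membrane protein gene known from T cells, ran from 0.079 to 3.48 FPKM. For the granule mean they were Sp110 at 0.954, Phf11b at 0.936, Tap2 at 0.934, and Gbp3 and Gbp9 at 0.933. Tap2 encodes a subunit of the transporter that supplies peptides for class I molecules, and it was far more abundant, at 11.3 to 52.5 FPKM. Without PS473@NKMOF-101-[Mn] tumor 2 the correlations of these 10 genes were 0.878 to 0.939. A list of 27 interferon-stimulated genes correlated at 0.91 with the granule mean and at 0.743 with the CD3 mean. All 27 had a higher mean in PS473@NKMOF-101-[Mn] than in Free PS473 (median 1.17), with 21 of them at an unadjusted p under 0.05 against 4.93% of all genes. All 27 were also higher than in PBS (median 0.63), with 4 at an unadjusted p under 0.05 against 2.58% of all genes, and the limma adjusted p was under 0.05 for 0 in both comparisons. The mean log2(FPKM + 1) of the list was 4.15, 5.37 and 3.74 in PS473@NKMOF-101-[Mn], so that tumor 2 stood far above the other tumors of its group. It was 4.12, 3.68 and 3.69 in PBS and 3.13, 2.8 and 3.79 in Free PS473. The other PS473@NKMOF-101-[Mn] tumors thus lay close to PBS. The list moved with the 10 genes, and its part in their differences was not tested.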

How the data were processed

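Tumors were taken to groups from their sample titles and treatment description, with 3 tumors in each of 6 groups. Poly(A) RNA had been enriched with oligo(dT) beads and primed with random hexamers. The authors deposited FPKM values for 41079 genes with 1 length per gene. The submitters' processing notes name genome build GRCm39, and the aligner, the counting tool and the annotation are not given in the sources used here. No tumors had identical values. The steps between low values gave the depth. Of 180 values of the 10 genes, 82 were whole fragments within 0.02, so that no count model was used for the main tests.

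A log2 was taken of FPKM + 1. Genes whose mean reached 0.1 FPKM, 18312 in all, entered 1 limma fit (version 3.58.1, R 4.3.3, group means over 18 tumors, trend on mean expression), and p-values were adjusted by Benjamini-Hochberg over all genes, with calls at an adjusted p under 0.05. Differences are the first group minus the second. The fit was tested on simulated data. Levels, correlations and motifs were computed in Python 3.11.15 with pandas 2.3.3, and Poisson intervals are exact at 95%. The genes, the marker lists and the tests were chosen with earlier results of these data known. Most named genes beyond the 10 were among the highest of each list or the 5 most alike to each mean, and Ncr1 was named as a defining marker. Cd247, Cd4, Ctla4 and Il2ra were picked as T-cell genes, although other genes of their lists had higher levels. Of the list genes, Fyb and 4 gamma delta T-cell genes were not matched in the table. Promoter sequences are RefSeq on GRCm38.p6, another build than that of the FPKM values, and were matched by symbol for 8 of the 10 genes. Alternatives were another pseudocount, 2 other filters, 2 other scalings, the compared groups alone, no trend, voom, the skin score as covariate, a replicate block, an unadjusted p, and each tumor left out.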

Additional observations from a re-analysis of the deposited data

How the results depend on the processing

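None of the 10 genes had an adjusted p under 0.05 with limma under any alternative run. These were 28 in 9 of the 11 comparisons and 27 in the other 2, for which the groups could not be compared alone. The filter at a mean of 1 FPKM tested only 4 of the 10 genes. Over the alternatives the adjusted p ran from 0.421 to 1 in PS473@NKMOF-101-[Mn] against Free PS473. With an unadjusted p under 0.05 as the threshold the count of genes went from 0 to 6 in PS473@NKMOF-101-[Mn] against Free PS473, to 3 with the framework tumors against the others, and to 1 each in M5@NKMOF-101-[Mn], Free PS473 and NKMOF-101-[Mn] against PBS and in the test for any difference. In PS473@NKMOF-101-[Mn] against PBS, the difference of Trac was -0.05 (-0.054) without PS473@NKMOF-101-[Mn] tumor 2, and its range with each tumor left out in turn was -0.054 to 0.742. The cause was not tested. Over the alternatives, 0 to 4 genes of the whole table were called in a comparison, and 33 of 306 such counts were above 0.

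The replicate numbers of the labels did not pair the tumors: deviations of tumors with the same number correlated at -0.696 to 0.7 (median -0.0159) and those of tumors with different numbers had a median of -0.0052. With the replicate number as a block, 0 of the 10 genes were called in each comparison, and 7 reached an unadjusted p under 0.05 against Free PS473. Low depth limits Cd3d and Gzma most, with medians of 12.5 and 12.75 fragments, and 3 tumors a group limit the precision of every difference.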
